A study of Oryza sativa with 3 samples.

Results

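The plasma membrane aquaporins PIP1 and PIP2 of rice (Oryza sativa) were followed in roots exposed to vanadium, a transition metal. The genes were chosen by locus number and comprise PIP1;1 to PIP1;3 and PIP2;1 to PIP2;7, written PIP1-1 and so on below, as in the synonyms of the RefSeq gene table. All 10 had probes among the 29689 loci on the array, with 30 probes in all, and 9 of them were among the 21095 loci that could be tested. The study compared 2 groups of roots of 6-day-old seedlings of cultivar TN-67, one exposed to 1 mM vanadium and one exposed to water. Total RNA of each group was hybridised together on 3 arrays, each carrying the vanadium RNA in Cy5 (red) and the water RNA in Cy3 (green) of 1 replicate that the labels call biological. The dyes were never swapped, so a dye effect of a single probe and the treatment effect have the same sign on every array and cannot be told apart. No exposure time and no number of seedlings per sample are given in the sources used here.

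Aquaporins are membrane channels for water and some small neutral solutes. PIP proteins sit in the plasma membrane as tetramers and, in roots, carry water from cell to cell on its way to the vascular tissue. When produced alone in frog oocytes, PIP2 proteins usually raise water permeability strongly and PIP1 proteins weakly, and PIP1 proteins often reach the membrane only together with PIP2 proteins. Other subfamilies lie in the vacuolar membrane (TIP) or carry solutes such as silicic acid and boric acid (NIP), and the SIP subfamily is small and mostly found at the endoplasmic reticulum.

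Names follow the list of loci by which the genes were chosen. Each of the 10 names was found once in the RefSeq table (assembly ASM3414082v1), on the chromosome given in its locus number, and the order along each chromosome was that of the locus numbers. PIP2-2, PIP1-1 and PIP1-3 lie on chromosome 2, and PIP2-6, PIP2-3 and PIP1-2 on chromosome 4. PIP2-7 lies on chromosome 9. PIP2-4, PIP2-5 and PIP2-1 are neighbours on chromosome 7, with 1 pseudogene between PIP2-4 and PIP2-5 and 0 genes between PIP2-5 and PIP2-1 in that table. Probe sequences were not at hand, and cross-hybridisation among these similar genes was not tested.

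Of 41889 gene probes, 31279 to 32245 exceeded background on an array in the vanadium channel and 29260 to 31919 did so in the water channel. No spot was saturated. Replicate 1 was on slide 1, and replicates 2 and 3 were on slide 2. Of 6 loci listed as root markers 5 were tested, and all 5 were well above background in both channels on all 3 arrays. Of these 1 rose, 2 fell by at least 2-fold and 2 did not pass the test. Their median log2 ratio of vanadium over water was -0.57. Their summed signal, in which the brightest loci weigh most, was 137500 to 208400 in water and 220600 to 248600 under vanadium. Of 10 photosynthesis loci, which mark green shoot tissue, 6 were tested, 2 of them rose and 4 did not pass the test. Of these 6, 4 were well above background on all arrays in water and 5 under vanadium. Their summed signal was 3243 to 5836 in water and 3979 to 4878 under vanadium. The part of other tissues or of a changed cell makeup in the results below was not tested. In whole roots, fewer cells of a type and less RNA per cell cannot be told apart.

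Transcripts of all 9 measurable PIP genes were lower under vanadium than in water, 3 of 3 PIP1 genes and 6 of 6 measurable PIP2 genes (limma, adjusted p under 0.05 over all loci, n = 3 arrays). By this rule 21.3% of all tested loci were lower and 29.7% were higher. The median log2 ratio of vanadium over water was -0.79 for the 9 genes and 0.02 over all 21095 tested loci. Single genes lay between -1.18 and -0.48, so that vanadium roots kept between 44.2% and 71.9% of the water signal. All 9 were well above background in both channels on all 3 arrays, so none entered the test through the water channel alone. All 9 had a ratio below 0 on each of the 3 arrays. A ratio that never changed sign between replicates was common, being found at 15571 of the 21095 tested loci. That background count takes falls and rises together. PIP2-7 was not well above background in either channel.

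**Figure D1:**
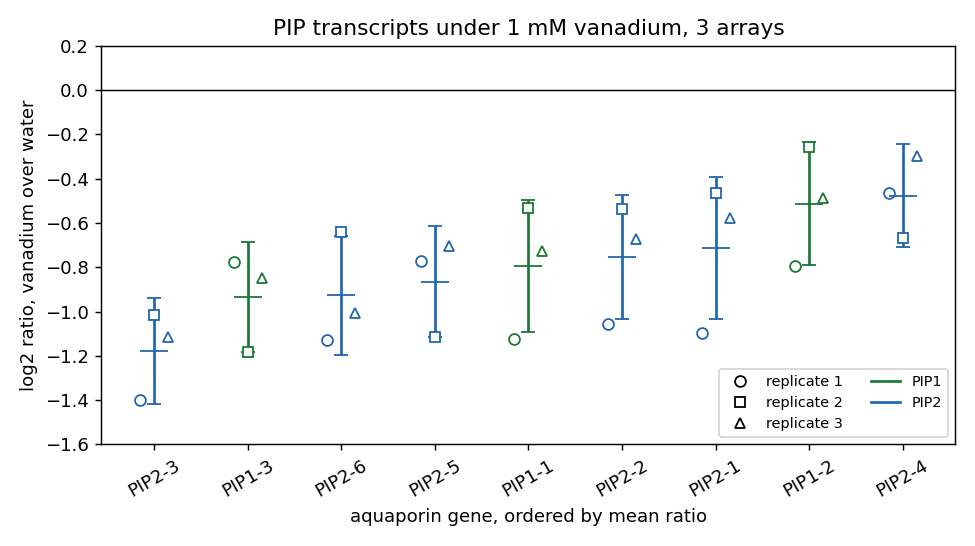
Log2 ratio of vanadium over water (y axis) of the 9 measurable PIP genes, ordered by mean (x axis). Open symbols are the 3 replicates, the horizontal stroke is the mean and the bars are 95% confidence intervals from limma. Means run from -1.18 (PIP2-3) to -0.48 (PIP2-4), and all 27 single values lie below 0.

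The signals below are log2 intensities of one representative probe per gene, the brightest that passed the filter, scaled so that the 3 arrays have the same distribution. They can be compared between samples for one probe. They do not rank transcripts of different genes, because probes differ in brightness.

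Among the PIP1 genes, PIP1-3 (Os02g0823100), also known as RWC3, a rice water channel gene, had the largest fall. Its signal in water was 13.89, 13.14 and 13.70 on replicates 1, 2 and 3, and under vanadium it was 13.12, 11.96 and 12.85. Every vanadium value was below every water value, and replicate 2 was lowest in both groups. The log2 ratios were -0.77, -1.18 and -0.85, with a mean of -0.94 ± 0.10 (standard error, SE, n = 3 arrays) and adjusted p = 0.000663, a 1.91-fold fall.

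PIP1-1 (Os02g0666200), also known as RWC1, is the gene of a rice water channel as well. It was at 16.05, 15.61 and 16.18 in water and at 14.93, 15.08 and 15.46 under vanadium on replicates 1, 2 and 3. The groups did not overlap, and replicate 1 fell furthest. Its ratios were -1.12, -0.53 and -0.72, with a mean of -0.79 ± 0.12 (SE, n = 3 arrays) and adjusted p = 0.00274.

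PIP1-2 (Os04g0559700) fell least in its subfamily. Signals were 14.34, 14.08 and 14.70 in water and 13.55, 13.82 and 14.21 under vanadium. Here the groups overlapped, since vanadium on replicate 3 exceeded water on replicate 2, although each array taken alone showed a fall. The ratios were -0.79, -0.26 and -0.49, with a mean of -0.51 ± 0.12 (SE, n = 3 arrays) and adjusted p = 0.0116. The call was lost with median centring in place of loess (adjusted p = 0.0561) and when the channels were fitted without their pairing by array (adjusted p = 0.152).

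Among the PIP2 genes, PIP2-3 and PIP2-5 are known in rice for expression mainly in roots. PIP2-3 (Os04g0521100) had the largest fall of all 9 genes, here and under each of 14 alternatives. It was at 13.71, 13.12 and 14.08 in water and at 12.31, 12.11 and 12.97 under vanadium. Vanadium values were all below water values, and the ratio was at or beyond -1 on every array, at -1.40, -1.01 and -1.12. The mean was -1.18 ± 0.10 (SE, n = 3 arrays) with adjusted p = 0.000209, a 2.26-fold fall. It was the 1 gene of the 9 to fall by at least 2-fold, against 1.60% of all tested loci, and 0.863% of tested loci had a lower mean ratio. That count rested on single arrays and on the scaling, since PIP1-3 passed -1 without replicate 1 (-1.02) and with the scanner's log ratio (-1.04), and PIP2-6 passed it without replicate 2 (-1.07).

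PIP2-5 (Os07g0448200) was at 14.04, 14.00 and 14.29 in water and at 13.27, 12.88 and 13.59 under vanadium. The groups did not overlap, and the water values were close together while vanadium on replicate 2 was low. Its ratios were -0.77, -1.12 and -0.70, with a mean of -0.86 ± 0.10 (SE, n = 3 arrays) and adjusted p = 0.00094. 

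PIP2-4 (Os07g0448100), beside PIP2-5 on chromosome 7, had the smallest fall of the 9 genes in this fit, but not with the scanner's log ratio (-0.66, against -0.52 for PIP1-2) or with median centring (-0.62, against -0.49 for PIP1-2). The order of PIP2-4 and PIP1-2 also turned without replicate 1 (-0.48 and -0.37) and without replicate 3 (-0.57 and -0.53). It was at 10.90, 11.34 and 11.58 in water and at 10.44, 10.68 and 11.28 under vanadium, with overlapping groups. The ratios were -0.47, -0.67 and -0.30, with a mean of -0.48 ± 0.10 (SE, n = 3 arrays) and adjusted p = 0.00754. Without the pairing by array it was not called (adjusted p = 0.248). PIP2-4 lay above PIP2-5 by 0.31, 0.45 and 0.41 on the 3 arrays, a mean difference in log2 ratio of 0.39 ± 0.07 (SD, n = 3 arrays).

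PIP2-1 (Os07g0448800), known to contribute to water conductance of rice roots and the other gene beside PIP2-5, was at 16.27, 15.78 and 16.06 in water and at 15.17, 15.32 and 15.49 under vanadium. Groups were apart, and the spread among the vanadium values was small. The ratios were -1.10, -0.46 and -0.58, with a mean of -0.71 ± 0.13 (SE, n = 3 arrays) and adjusted p = 0.00563. This was the most uneven gene of the 9, with an SD of 0.34 over the arrays, and with median centring adjusted p = 0.0520.

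PIP2-2 (Os02g0629200) was at 13.93, 13.52 and 14.14 in water and at 12.87, 12.98 and 13.47 under vanadium, with no overlap. Its ratios were -1.06, -0.54 and -0.67, with a mean of -0.75 ± 0.12 (SE, n = 3 arrays) and adjusted p = 0.00255. PIP2-6 (Os04g0233400), which like PIP2-4 and PIP2-7 has been reported to pass arsenite when produced in frog oocytes, was at 14.64, 14.29 and 14.77 in water and at 13.51, 13.64 and 13.76 under vanadium. Vanadium values again lay below all water values. Ratios of PIP2-6 were -1.13, -0.64 and -1.01, with a mean of -0.93 ± 0.11 (SE, n = 3 arrays) and adjusted p = 0.000948.

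**Figure D2:**
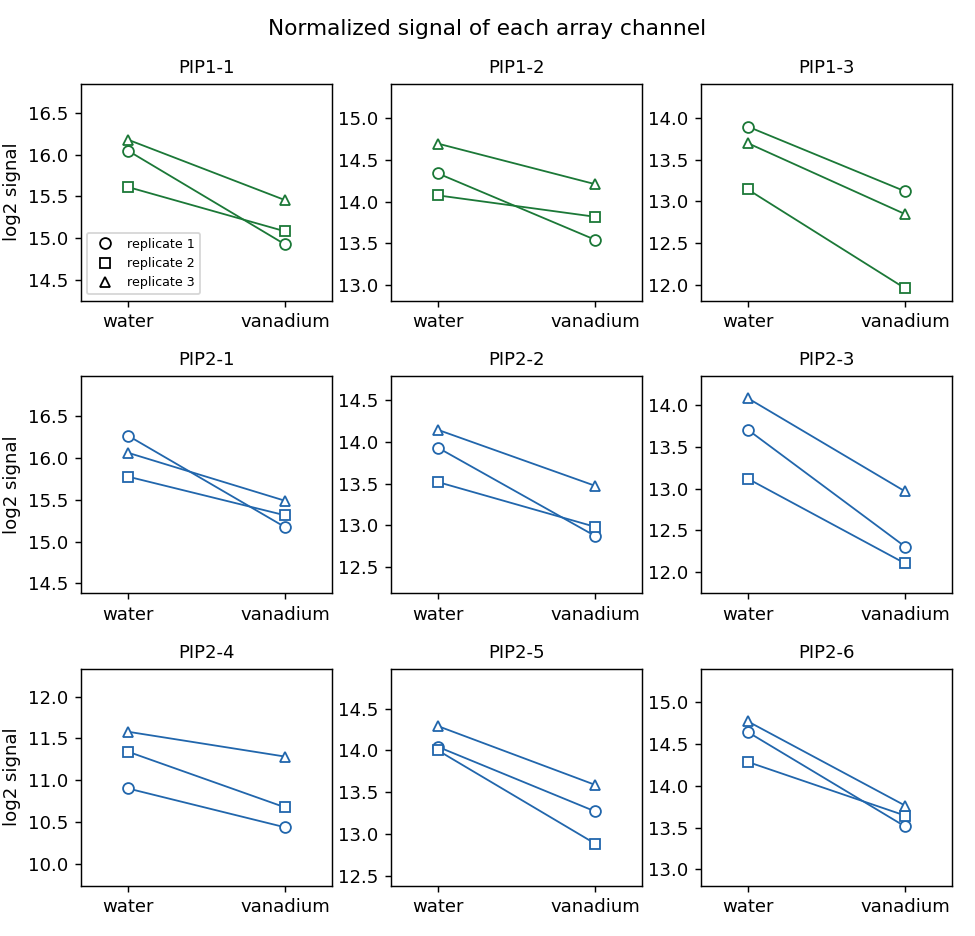
Normalized log2 signal (y axis) of the water and the vanadium channel (x axis) for each of the 9 measurable PIP genes, with a line for each array. Each panel spans the same height on its own level. All 27 lines fall, and only PIP1-2 and PIP2-4 have vanadium values that reach into the range of the water values.

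In 7 of the 9 genes all 3 vanadium values were below all 3 water values, which held for 16.7% of all tested loci. PIP1-2 and PIP2-4 were the exceptions. When the 6 channels were fitted without their pairing by array, 6 of the 9 genes were lower, against 6.5% of all tested loci, and PIP1-2, PIP1-3 and PIP2-4 did not pass the test (PIP1-3 at adjusted p = 0.0854). For PIP1-3 the unpaired spread includes the low signal of replicate 2 in both channels.

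PIP1 and PIP2 genes were not separated beyond the spread between arrays in this fit. The median of the mean log2 ratios was -0.79 for the 3 PIP1 genes and -0.81 for the 6 PIP2 genes. This difference of 0.02 became 0.24 with median centring, for which the spread between arrays was not computed. On replicate 1 the medians were -0.79 for PIP1 and -1.08 for PIP2, on replicate 2 they were -0.53 and -0.65, and on replicate 3 they were -0.72 and -0.69. PIP1 minus PIP2 was therefore 0.28, 0.12 and -0.04 on the 3 arrays, with a mean of 0.12 ± 0.16 (SD, n = 3 arrays), smaller than its spread and of mixed sign. That mean is taken over differences per array, whereas 0.02 compares medians of gene means. No test is given, since genes are not replicates and an exact sign-flip test over 3 arrays cannot go below a two-sided p = 0.25. Each subfamily held genes from both ends of the order: PIP1-3 and PIP1-2 were second and second to last, and PIP2-3 and PIP2-4 were first and last.

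From the largest to the smallest fall the order was PIP2-3, PIP1-3, PIP2-6, PIP2-5, PIP1-1, PIP2-2, PIP2-1, PIP1-2 and PIP2-4. Most neighbours did not keep this order on all 3 arrays. Only PIP1-2 was above its lower neighbour, PIP2-1, on all 3 arrays, by 0.20 ± 0.11 (SD, n = 3 arrays). The next step, from PIP1-2 to PIP2-4, was 0.04 ± 0.39. Over all 36 pairs of genes, 17 had a difference of the same sign on the 3 arrays. For a pair that does not differ, a shared sign on 3 arrays has a probability of 0.25. Pairs also share genes, and the counts of pairs were not tested. PIP2-3 lay below 6 of the other 8 genes on every array, the exceptions being PIP1-3 and PIP2-5.

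The array of the largest fall, which every gene has, was not the same for all 9 genes. Replicate 1 gave the largest fall for 6 genes, PIP1-1, PIP1-2, PIP2-1, PIP2-2, PIP2-3 and PIP2-6. For the other 3, PIP1-3, PIP2-4 and PIP2-5, the largest fall was on replicate 2. Of all loci called lower, 47.8% had their lowest ratio on replicate 1. Over all 21095 tested loci the lowest ratio was on replicate 1 for 7778 and on replicate 2 for 7667. PIP1-3 and PIP2-5, singled out after their values were seen, differed by 0.00, 0.07 and 0.15 on the 3 arrays. With replicate 1, the only array on slide 1, left out, all 9 genes were still lower, between -1.07 and -0.37, as were 17.1% of all tested loci.

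Genes with bright and with dim probes could be compared only in part. All 9 measurable genes had representative probes in the upper 25% of tested loci by mean signal. In that bright class 21.6% of loci were lower, close to the share over all loci, and the median log2 ratio was 0.01. PIP2-4 was just inside the limit, with a probe brighter than 76.3% of tested loci, and the next dimmest, PIP2-3, was brighter than 92.2%. These genes had the smallest and the largest fall in this fit. The brightest probes, those of PIP2-1 and PIP1-1, were at -0.71 and -0.79. Among tested loci of the dim class, those with a mean log2 signal below 9.36, 20.4% were lower. PIP2-7 was classed as dim because no probe of it was kept, and it is not among these tested loci.

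PIP2-7 (Os09g0541000) was the only gene with dim probes. None of its 4 probes was well above background in either channel on any array. Before normalization the 4 spots read 87 to 107 in water on replicate 1, where negative control spots had a median of 89 and a 95th percentile of 99. They read 163.5 to 174 on replicate 2, against a median of 160 and a 95th percentile of 182.9. On replicate 3 they read 156 to 174.5, against 154.5 and 177.1. In the vanadium channel they read 60 to 71, 63 to 80 and 68 to 80, against medians of 62, 67 and 68. The 95th percentiles there were 68.4, 88 and 95.1. The highest reading thus exceeded the 95th percentile on replicate 1, in both channels, and on no other replicate. No fold change is given for PIP2-7, and a change in its transcript was not detectable at this signal.

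Several probes per gene gave a check within the array. Of the 30 probes 24 passed the filter, and all 24 were lower under vanadium (limma, adjusted over 29704 probes, of which 21.4% were lower). The other 6 were the 4 of PIP2-7 and 1 each of PIP2-2 and PIP2-6, which were left out because their spot was marked as an outlier on 1 array. On the remaining 2 arrays these averaged -0.61 for PIP2-2 and -0.98 for PIP2-6. The 7 probes of PIP2-1 lay between -0.77 and -0.59, and the 3 of PIP1-2 between -0.55 and -0.51. Probes of one gene share the RNA and the array and are no further replicates.

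Of the 4 genes with several kept probes, PIP1-1, PIP2-1 and PIP2-6 had the smallest fall at the dimmest probe. Their brightest and dimmest kept probes differed 6.75-fold, 2.40-fold and 5.66-fold in signal. The probes of PIP1-2 differed only 1.03-fold and gave -0.55 at the dimmest and -0.51 at the brightest, so they show no relation. In PIP2-1 the dimmest probe gave -0.59. Of the 6 probes of PIP1-1, the 4 brighter ones gave -0.82 to -0.78, and the 2 dimmest gave -0.60 and -0.58. Of the 3 probes kept for PIP2-6, the brightest gave -0.93 ± 0.11 and the next -0.91 ± 0.11 (SE, n = 3 arrays). The dimmest, whose signal was 5.66 times lower, gave -0.50 ± 0.09. Taken from the log ratio that the scanner software wrote, the same 3 probes of PIP2-6 gave -0.93, -0.94 and -0.61. The direction of PIP2-6 was the same for all its probes, and the size was not. Whether these probes also bind other transcripts was not tested.

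**Figure D3:**
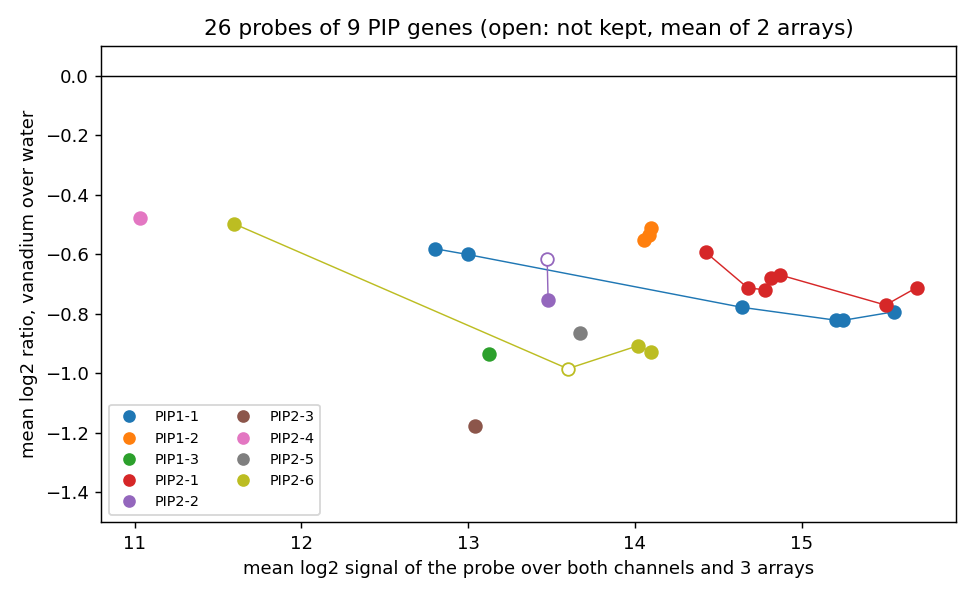
Mean log2 ratio of vanadium over water (y axis) against mean log2 signal (x axis) for 26 probes of the 9 measurable PIP genes, with probes of one gene in one colour and joined by a line. Filled points passed the filter and open points are means of 2 arrays. All points lie below 0, and the dimmest probes of PIP1-1 (-0.58) and PIP2-6 (-0.50) lie above the brighter probes of the same gene.

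Other aquaporins did not share one direction. Of 23 further loci listed by subfamily, 15 were tested, with 7 lower, 3 higher and 5 not called, and a median log2 ratio of -0.15. Over all tested loci 21.3% were lower and 29.7% higher. None of the 3 higher loci had a probe of the bright class, which held all 9 PIP genes. The other aquaporins of the bright class were lower, apart from a TIP locus at 0.29 that was not called. The locus listed as PIP2-8, the one PIP locus outside the 10, was at -0.15 ± 0.09 (SE, n = 3 arrays) and was not called (adjusted p = 0.199). Its representative probe was in the dim class, unlike those of the measurable PIP genes above. Of 7 tested TIP loci, channels of the vacuolar membrane, 4 were lower, 1 was higher by 1.16 ± 0.08 and 2 were not called. Their median log2 ratio was -0.56. Of 5 tested NIP loci 2 were lower and 2 were higher, from -2.07 ± 0.20 at Os02g0745100, which also stood among the root markers, to 1.16 ± 0.10 at Os05g0205000. Of 2 tested SIP loci 1 was lower, at -0.36 ± 0.11. The difference between the PIP genes and the other subfamilies was not tested.

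**Figure D4:**
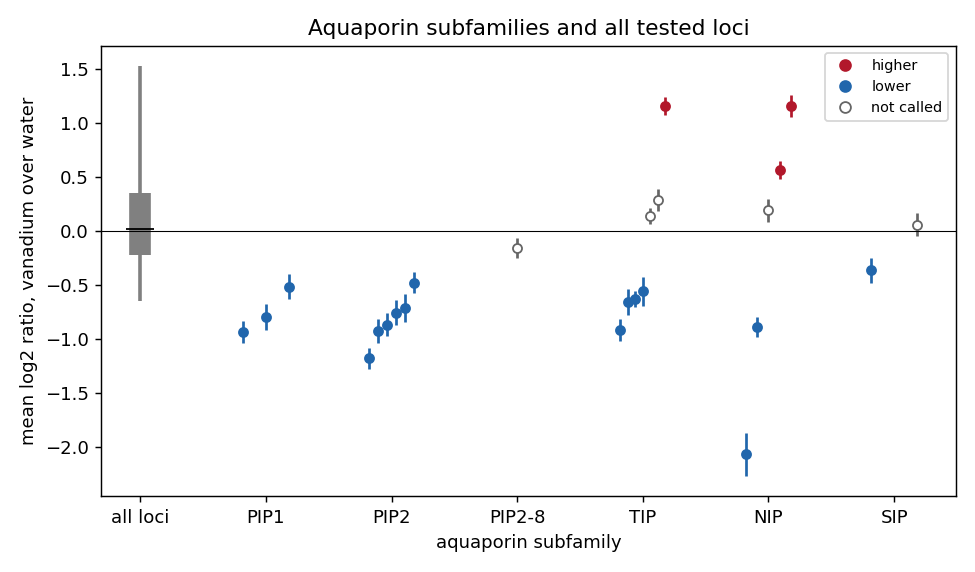
Mean log2 ratio of vanadium over water (y axis) of each tested aquaporin locus by subfamily (x axis), with bars of 1 SE from limma, n = 3 arrays. Blue points were lower, red points higher and open points not called, and the grey column shows the 5th to 95th percentile of all tested loci (-0.64 to 1.53), its thick part the 25th to 75th. PIP1 and PIP2 points all lie below 0, while TIP and NIP points lie on both sides.

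The scaling of the arrays changed the balance of calls. Of the called loci 58.2% were higher here, against 41.4% with the scanner software's log ratio, which shifted the median of all loci by -0.14. Under that scaling all 9 PIP genes were lower as well, and so were 32.8% of all tested loci. The shift was not the same for every gene, since PIP2-4 moved from -0.48 to -0.66 and PIP2-6 stayed at -0.93. The median of the 9 genes relative to that of all loci was -0.71, against -0.81 here.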

How the data were processed

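The deposited array files hold, per the file headers, spot and local background intensity read by Agilent Feature Extraction 10.7.1.1, without normalization, a processed intensity, and log10 of the red to green ratio. Values in the deposited table of the authors are log2 ratios. Each value matched log2 of the processed red to green ratio within 0.001 for 41882 probes (100%), so its scale and direction are known, and its column medians were -0.05, -0.19 and -0.21. The labels' protocols state amplification to cRNA and the dyes.

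Median signals were corrected by normexp (offset 50) and normalized by loess within arrays, with control spots and outlier spots at weight 0 (limma 3.58.1, R 4.3.3). Outlier spots, 306 to 1090 of 45151 per array, were left out. A probe was kept if it was measured on all 3 arrays and well above background on all 3 in at least 1 channel. The brightest kept probe stood for a locus. The mean log2 ratio was tested against 0 (lmFit, eBayes, two-sided, Benjamini-Hochberg over 21095 loci, threshold 0.05). Pairing comes from the array, on which both RNAs of a replicate were hybridised. Channel signals were scaled by Aquantile. The rule for naming took all 10 genes, whatever their values. The genes, lists and classes were chosen with earlier results of these data known, and non-member loci were listed from general knowledge.

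On simulated intensities for this comparison of 21095 loci, a 1.5-fold change was recovered at 28.4% of 67 loci. The share was 92.5% of 67 at 2-fold and 100% of 66 at 4-fold. Only these loci were changed in the simulation, whereas 21.3% of tested loci were lower and 29.7% higher in the data. The Benjamini-Hochberg limit on p is stricter when fewer loci change. These shares therefore do not give the sensitivity of the real comparison. The number of arrays limits the precision. The labels call the replicates biological but name no separate cultures, so the p-values measure the spread between these samples. Alternatives covered background correction, normalization, the filter, the probe per locus, pairing, slide and each replicate left out.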

Additional observations from a re-analysis of the deposited data

How the results depend on the processing

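Over 14 alternatives and the 9 measurable PIP genes, all 126 log2 ratios were below 0 and 121 were called lower. The share of all tested loci called lower ran from 6.5% without pairing to 32.8% with the scanner's log ratio. Many signs of the 126 PIP ratios were fixed in advance. The changed filters, slide as a block and the fit without pairing left the ratios of these genes as they were. Leaving out a replicate averages single ratios that were all below 0. For these genes the authors' table repeated the scanner's log ratio. The 5 lost calls were PIP1-2 and PIP2-1 with median centring (-0.49 and -0.50) and PIP1-2, PIP1-3 and PIP2-4 without the replicate block, that is, without the pairing of channels by array, where the ratios were unchanged by construction (-0.51, -0.94 and -0.48) and the errors larger. Slide as a block, weighting the arrays equally, called all 9, and 24% of all tested loci were lower in that fit. With a replicate left out all 9 were called each time. The share of all tested loci called lower was then 17.1%, 17% and 13.6% without replicates 1, 2 and 3. The PIP1 median ran from -0.83 to -0.63 in these 3 fits, the smallest fall being without replicate 1. Median centring gave a PIP1 median of -0.60 and a difference of the PIP1 and PIP2 medians of 0.24, against 0.02 here. The count of other aquaporins called lower was 4 with median centring and 3 without the replicate block, against 7. Over all loci, 4052 were higher with median centring and 3217 without the replicate block, where 1372 were lower. The scanner log ratio and the authors' table both gave 6910 lower, and leaving out a replicate gave 2872 to 3599 lower, fewest without replicate 3. The cause of these shifts was not tested, apart from the larger errors without pairing. PIP2-7 entered only the fit without the filter on dim probes, and no ratio of it is given.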
